A study of Mus musculus with 15 samples.

Results

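The nuclear genes of the mitochondrial respiratory chain were examined in large-diameter sensory neurons of the mouse dorsal root ganglion. Members were taken by symbol: names that start with Nduf, Uqcr or Atp5, or with Cox followed by 4, 5, 6, 7 or 8, together with Sdha, Sdhb, Sdhc, Sdhd, Cyc1 and Cycs. Each gene is represented by its brightest probe set, judged on the mean signal. This gave 91 genes of the 19938 measured. They comprise 34 complex I genes, 7 complex I assembly factors (the Ndufaf genes), 4 complex II, 9 complex III, 1 cytochrome c, 19 complex IV and 17 ATP synthase genes.

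The respiratory chain sits in the inner mitochondrial membrane. Complex I takes electrons from NADH and complex II takes them from succinate. Ubiquinone carries them to complex III and cytochrome c to complex IV, which passes them to oxygen, and ATP synthase uses the resulting proton gradient to make ATP. Long-axoned sensory neurons depend on this ATP for ion pumping and axonal transport. Several complex IV subunits exist as paralogs that replace each other by tissue.

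RNA was hybridised to 15 Affymetrix whole-transcript arrays, 3 labelled as biological replicates in each of 5 groups. All mice were C57BL/6 transgenics in which green fluorescent protein is driven by the CGRP (calcitonin gene-related peptide) promoter, and age and sex are not stated. After dissociation of the lumbar 2 to 5 ganglia, neurons above 26.9 µm were sorted by this fluorescence and by wheat germ agglutinin, a retrograde tracer given 5 days earlier into the saphenous nerve or the gastrocnemius muscle. The CFA paw group held CGRP-positive neurons projecting to skin after complete Freund's adjuvant (CFA, an inflammatory agent) was injected into the paw, and the saline paw group was its control. The CFA muscle and acid muscle groups held CGRP-negative neurons projecting to muscle after either agent was injected into muscle, with the saline muscle group as their control. CGRP status, target tissue, tracer site and injection site therefore differ together between paw and muscle groups, and they cannot be told apart. The labels do not say whether a replicate is 1 animal or a pool, so the p-values measure the spread between these samples.

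Values are the authors' normalised log2 signals. The 8 neuron markers (Rbfox3, Tubb3, Snap25, Uchl1, Prph, Nefh, Nefm, Nefl) had array medians of 7.99 to 10.18, against the dim limit of 2.44 explained below. The medians were 5.03 to 5.93 for satellite glia markers, 4.26 to 7.05 for the 3 measured Schwann cell markers, 2.43 to 3.82 for 5 endothelial markers and 2.11 to 2.54 for 6 macrophage markers. Signals of different probe sets do not give the makeup of the sorts. Correlations between replicates over all genes were 0.939 to 0.991. Saline paw replicate 1 and acid muscle replicate 2 stood apart from the other arrays of their groups. Acid muscle replicate 3 stood apart in the values of the members, while over all genes it correlated at 0.974 with replicate 1. Counts of members that passed and medians over all members are given without some of these arrays where named. Non-overlap counts, signal bands, other scalings, most paralogs, other lists and markers are given with all arrays only. In such bulk samples, fewer cells of a type and less RNA per cell cannot be told apart.

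Nearly all members gave signal above background. A dim limit was set at 2.44, the 95th percentile of the mean signal of 1194 olfactory and vomeronasal receptor genes, and 87 of the 91 members lay above it. The 4 dim members were Cox7b2, Cox8b, Cox8c and Ndufaf6. Probe sets differ in how strongly they bind, so a signal shows where a gene sits relative to background and not how abundant it is relative to another gene.

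**Figure D1:**
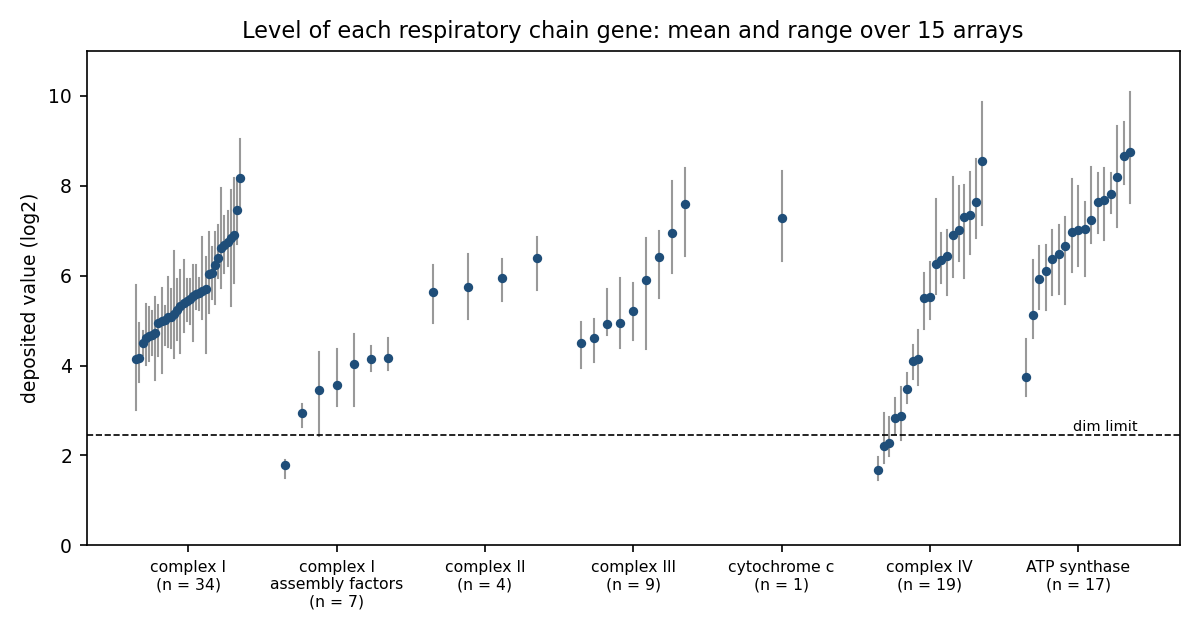
Deposited log2 signal of each of the 91 genes, grouped by complex and ordered by mean signal within it. Points are means and lines the range over 15 arrays. The dashed line at 2.44 is the dim limit, which 4 members fall below.

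Mean signals of the ATP synthase members ran from 3.75 for Atp5e (the epsilon subunit) to 8.74 for Atp5g1 (a gene for the membrane c subunit), with a median of 7.00. Complex IV members ran from 1.68 for the dim Cox7b2 to 8.55 for Cox6a1. Complex III members ran from 4.49 for Uqcrfs1 (the Rieske iron-sulfur protein) to 7.59 for Uqcrh (the hinge protein), and Cycs, cytochrome c itself, had 7.28. The other Cycs probe sets had 6.83 and 1.93, the latter below the dim limit. Complex I members lay between 4.14 for Ndufa1 and 8.16 for Ndufb9. The complex II members lay between 5.64 for Sdhd, a membrane anchor, and 6.38 for Sdha, the flavoprotein that oxidises succinate. The Ndufaf assembly factors, which help to build complex I without being part of it, ran from 1.78 for Ndufaf6 to 4.17 for Ndufaf2.

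The promoters of several members carry sites of factors known to control respiratory genes, and 4 are shown: Ndufa11, Cox6a1 and Atp5g1 because their values recur below, and Cycs because it is a textbook target of such a factor. RefSeq promoter windows on build GRCm38.p6, covering 250 bases before to 50 after each start, were found for 74 of the 91 members (79 windows). The nuclear respiratory factor 1 (NRF1) motif GCGCATGCG, on either strand, was in 11 of the 79 windows (13.9%) and in 1.75% of all 32851 windows of the table. The motif CCGGAAG of ETS factors such as GABPA was in 22.8% against 8.86%, AAGGTCA of estrogen-related and other nuclear receptors in 8.86% against 4.72%, and the YY1 motif AAGATGGCG in 8.86% against 1.40%. None of these motifs contains another. The median GC content of the windows was 58.3% for members and 52.7% for all. A match describes letters in the window and not a bound site. The windows below lie at chr17:56717512-56717811 on the plus strand (Ndufa11), chr6:50566520-50566819 on the minus strand (Cycs), chr5:115348909-115349208 on the minus strand (Cox6a1) and chr11:96075582-96075881 on the minus strand (Atp5g1), each written 5′ to 3′ along the gene. Capitals mark NRF1 matches in Ndufa11 and Cycs, and NRF1 and then CCGGAAG matches in Cox6a1. The palindrome-like NRF1 sites of Ndufa11 and Cox6a1 match on both strands 1 base apart. The Atp5g1 window holds none of the 4 motifs.
Ndufa11: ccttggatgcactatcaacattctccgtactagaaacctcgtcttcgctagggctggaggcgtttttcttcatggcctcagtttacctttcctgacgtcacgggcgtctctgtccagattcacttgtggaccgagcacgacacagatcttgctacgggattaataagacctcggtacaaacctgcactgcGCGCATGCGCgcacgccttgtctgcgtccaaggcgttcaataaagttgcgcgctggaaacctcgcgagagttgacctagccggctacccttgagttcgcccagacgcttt
Cycs: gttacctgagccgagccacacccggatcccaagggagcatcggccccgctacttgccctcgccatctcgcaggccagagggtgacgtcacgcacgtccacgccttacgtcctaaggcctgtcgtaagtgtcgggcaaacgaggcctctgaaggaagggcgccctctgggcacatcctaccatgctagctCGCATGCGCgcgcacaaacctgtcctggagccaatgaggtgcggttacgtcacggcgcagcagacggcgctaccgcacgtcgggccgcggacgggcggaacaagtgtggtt
Cox6a1: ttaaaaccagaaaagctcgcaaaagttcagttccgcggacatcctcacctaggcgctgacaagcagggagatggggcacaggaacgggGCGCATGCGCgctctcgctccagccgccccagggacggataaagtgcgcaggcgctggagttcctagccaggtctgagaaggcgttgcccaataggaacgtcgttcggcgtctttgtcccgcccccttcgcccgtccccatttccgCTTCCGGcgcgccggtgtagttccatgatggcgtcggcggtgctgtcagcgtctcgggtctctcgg
Atp5g1: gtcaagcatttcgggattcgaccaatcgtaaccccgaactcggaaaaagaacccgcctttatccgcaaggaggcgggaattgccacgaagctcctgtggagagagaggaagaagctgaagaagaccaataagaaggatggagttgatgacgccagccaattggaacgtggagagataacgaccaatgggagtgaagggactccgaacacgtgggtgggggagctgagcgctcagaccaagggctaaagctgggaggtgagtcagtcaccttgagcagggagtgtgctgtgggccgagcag

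Between skin and muscle neurons of saline-injected mice, 1 member passed the test and was higher in skin neurons. It was Atp5d, the delta subunit in the central stalk of ATP synthase (chromosome 10). Its values were 8.10, 9.32 and 9.27 in saline paw arrays, against 7.71, 7.58 and 7.65 in saline muscle arrays. Every paw value lay above every muscle value, and replicate 1 was the lowest of the paw arrays. The log2 difference was 1.25 (SE 0.30, a 2.38-fold signal), with an adjusted p of 0.0474 in limma over all 19938 genes. Among all genes 1.87% were called higher and 0.171% lower, so 1 call among 91 members is near the background. Without saline paw replicate 1 the difference was 1.65, and 14 members (15.4%) were higher and 1 (1.10%), Ndufa4l2, was lower, against 14.1% and 5.10% of all genes. With any other of the 6 arrays left out, Atp5d differed by 1.04 to 1.29 and did not pass (adjusted p of 0.0890 to 0.255). Arrays of the other groups share the estimate of spread, and Atp5d did not pass either without CFA paw replicate 1, 2 or 3, CFA muscle replicate 1, 2 or 3 or acid muscle replicate 1 (adjusted p of 0.0629 to 0.0740), leave-outs chosen after seeing the data. Without acid muscle replicate 3, Ndufv3 passed as well (adjusted p = 0.0396).

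Over all members the difference was small and mostly positive as the values were deposited. Its median was 0.21 on the log2 scale, with 71 of 91 members positive, against a median of -0.02 over all genes tested. Without saline paw replicate 1 the member median was 0.52 (82 positive), without replicate 2 it was 0.08 (56 positive) and without replicate 3 it was 0.12 (61 positive). In 12 members every saline paw value lay above every saline muscle value and in none did it lie below, while 8.11% and 7.06% of all genes did so. Atp5g1 was next in size to Atp5d, with 8.48, 10.09 and 9.70 in saline paw arrays, against 8.33, 8.28 and 8.14 in saline muscle arrays. Its difference of 1.17 (SE 0.36) did not pass the test (adjusted p = 0.107), and neither did that of Ndufa11, a membrane-arm subunit of complex I, at 0.92 (SE 0.40), or of Ndufv3, a subunit of its NADH-oxidising module, at 0.92 (SE 0.34). At the other end lay Cox6a2 (-0.35), Ndufa4l2 (-0.32), Cox6c (-0.29) and Ndufs5 (-0.28), with adjusted p-values of 0.438 to 0.793. By complex, the median difference was 0.28 for ATP synthase (16 of 17 positive), 0.25 for complex I (26 of 34), 0.08 for its assembly factors (6 of 7), 0.28 for complex II (4 of 4), 0.17 for complex III (7 of 9) and 0.13 for complex IV (11 of 19), and Cycs differed by 0.34. Without saline paw replicate 1 these medians were, in the same order, 0.65, 0.49, 0.12, 0.62, 0.52 and 0.30, and Cycs differed by 0.71.

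The same comparison under CFA gave 4 members (4.40%) that were higher in skin neurons and none that was lower, against 5.75% and 0.667% of all genes, so the share called is near the background. Its differences use none of the saline arrays, but its tests share 1 estimate of spread with all 15 arrays. Atp5d had 9.23, 9.06 and 8.98 in CFA paw arrays, against 7.64, 7.66 and 7.46 in CFA muscle arrays. Atp5g1 had 9.78, 9.40 and 9.73 in CFA paw arrays, against 8.14, 8.06 and 7.98 in CFA muscle arrays. The groups were well apart for both ATP synthase genes, at 1.51 (SE 0.30, 2.84-fold, adjusted p = 0.00922) and 1.58 (SE 0.36, 2.98-fold, adjusted p = 0.0166). A second Atp5g1 probe set differed by 1.46.

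The other genes that passed were Ndufa11 and Sdhc, the cytochrome b large subunit that anchors complex II (chromosome 1). Ndufa11 had 7.29, 7.66 and 7.73 in CFA paw arrays, against 6.25, 6.15 and 5.84 in CFA muscle arrays. Sdhc had 6.48, 6.23 and 6.18 in CFA paw arrays, against 5.47, 5.29 and 5.27 in CFA muscle arrays. Neither gene overlapped between the groups, and the differences were 1.48 (SE 0.40, adjusted p = 0.0432) and 0.95 (SE 0.23, adjusted p = 0.0240). A second Ndufa11 probe set differed by 1.01. With any of the 6 arrays left out in turn, Atp5d still passed (adjusted p of 0.0296 to 0.0442). Ndufa11 and Sdhc did not pass in any of those 6 fits, and Atp5g1 passed in 1, without CFA paw replicate 2. Left out after seeing the data, arrays of the other groups moved the count too. It was 9 members without saline paw replicate 1 (9.89%, against 10.6% of all genes), 7 without acid muscle replicate 2 (7.69% against 6.37%) and 8 without acid muscle replicate 3 (8.79% against 6.17%). Ndufa11 did not pass without acid muscle replicate 1, saline muscle replicate 1 or 2 or saline paw replicate 3 (adjusted p of 0.0536 to 0.0584).

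**Figure D2:**
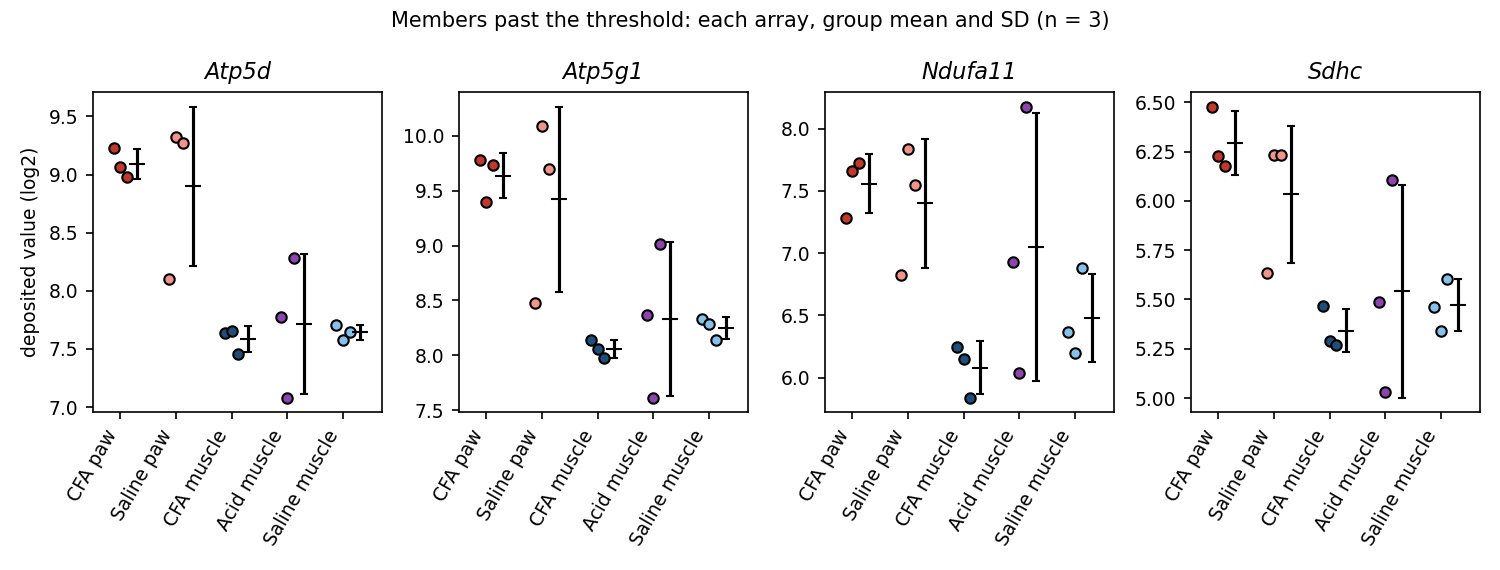
Deposited log2 signal of the 4 genes that passed the test, for each array in the 5 groups, with group mean and SD (n = 3) in black beside the points. CFA paw arrays lie above CFA muscle arrays in each panel, while 1 saline paw array and 1 acid muscle array lie far from the others of their groups.

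The 4 genes behaved differently outside these arrays. Acid muscle replicate 3 had 8.18 for Ndufa11, above every paw array, and 6.11 for Sdhc, inside the paw range. Saline paw replicate 1 had 8.10 for Atp5d and 8.48 for Atp5g1, below the 8.29 and 9.01 of acid muscle replicate 3. No member had all 6 paw arrays above all 9 muscle arrays.

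Across members the CFA paw minus CFA muscle difference had a median of 0.18, with 69 of 91 positive, against -0.04 over all genes tested. Groups did not overlap for 32 members in the higher and 3 in the lower direction, against 18.9% and 17.1% of all genes. The medians were 0.34 for ATP synthase (15 of 17 positive), 0.26 for complex I (29 of 34), 0.24 for complex II (3 of 4), 0.21 for complex III (7 of 9), 0.07 for complex IV (11 of 19) and -0.07 for the assembly factors (3 of 7), and Cycs differed by 0.53. Of the 91 members, 71 (78.0%) had the same sign in the saline and CFA comparisons, and 76.8% of all genes did. The members whose paw values lay above the muscle values without overlap in both were Atp5d, Atp5g1, Atp5j2, Ndufa7, Ndufv3, Sdhc and Uqcrh. The share of all genes that did so in both was not counted, so this list has no background to be set against.

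This difference followed signal strength in the whole array. Of all genes with a mean signal of 5 to 6, 6 to 7 and 7 to 8, the median difference between saline paw and saline muscle was 0.38, 0.53 and 0.64. The members in these bands had lower medians, 0.22 (n = 23), 0.32 (n = 21) and 0.34 (n = 13). Under CFA, all genes in the same bands had medians of 0.48, 0.74 and 0.81 and the members 0.26, 0.31 and 0.54. From 4 to 5 the 18 members had 0.10 with saline and 0.05 under CFA, against 0.20 and 0.19 for all genes. Members lay above all genes from 3 to 4 in both comparisons (0.19 against 0.01 with saline, 0.10 against -0.05 under CFA, n = 4). Below 3, the 7 members had 0.00 with saline and -0.14 under CFA, against -0.11 and -0.12 for all genes. Above 8, the 5 members had 0.90 with saline and 1.33 under CFA, against 1.08 and 1.33 for all genes. Between signals of 4 and 8 the member median thus lay below that of all genes in both comparisons, a description with no test, and the bands with under 20 members are thin.

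**Figure D3:**
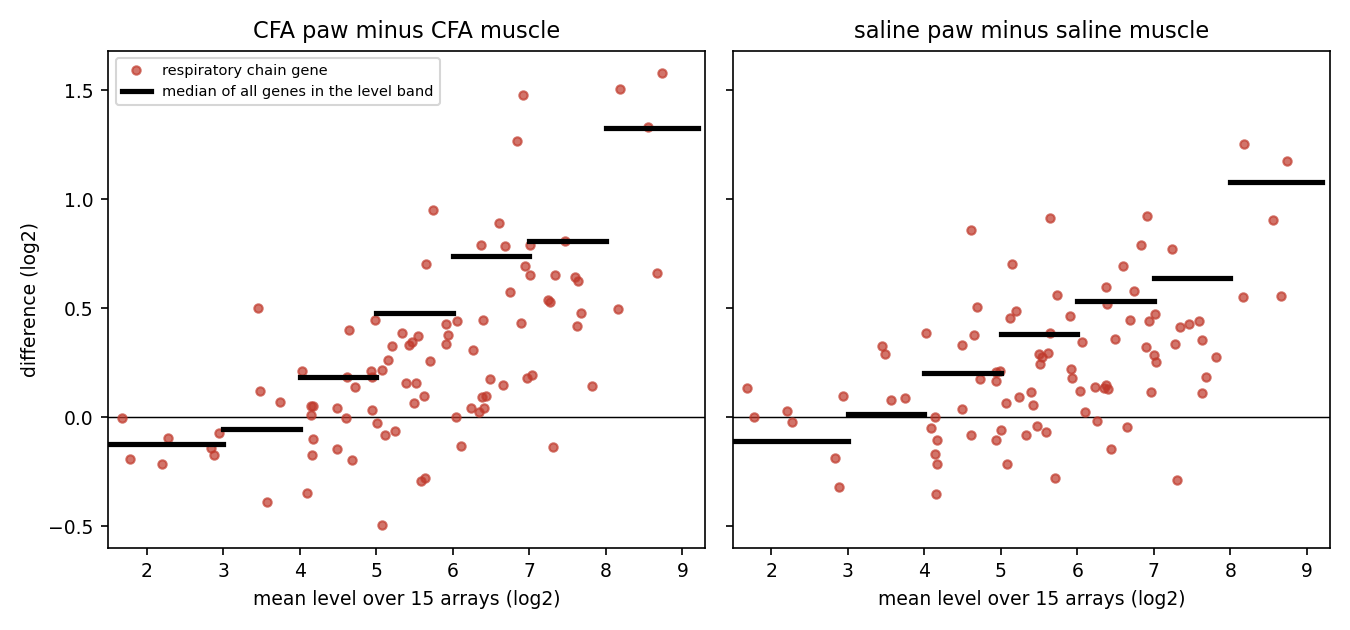
Log2 difference of each respiratory chain gene (points) against its mean log2 signal over 15 arrays, for CFA paw minus CFA muscle and saline paw minus saline muscle. Black bars give the median of all genes in each signal band, rising from -0.12 and -0.11 below 3 to 1.33 and 1.08 above 8, and most members of the middle bands lie below the bar.

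The arrays themselves differed in range. The SD of all values on an array was 1.66 to 1.74 in CFA paw and 1.42 to 1.80 in saline paw arrays, and 1.37 to 1.47 in CFA muscle, 1.28 to 1.55 in acid muscle and 1.34 to 1.51 in saline muscle arrays. Saline paw replicate 1, at 1.42, had the range of a muscle array. The member median was 6.11, 5.78 and 5.60 in CFA paw arrays and 5.22, 6.21 and 6.08 in saline paw arrays. It was 5.60, 5.59 and 5.41 in CFA muscle, 5.74, 5.24 and 6.20 in acid muscle and 5.62, 5.52 and 5.52 in saline muscle arrays. By rank within an array the order differed: the median member lay at a mean percentile of 89.6 ± 1.42 in CFA paw and 90.3 ± 0.83 in saline paw, and at 91.7 ± 1.73 in CFA muscle, 93.0 ± 1.49 in acid muscle and 91.7 ± 1.05 in saline muscle arrays (SD, n = 3 each).

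**Figure D4:**
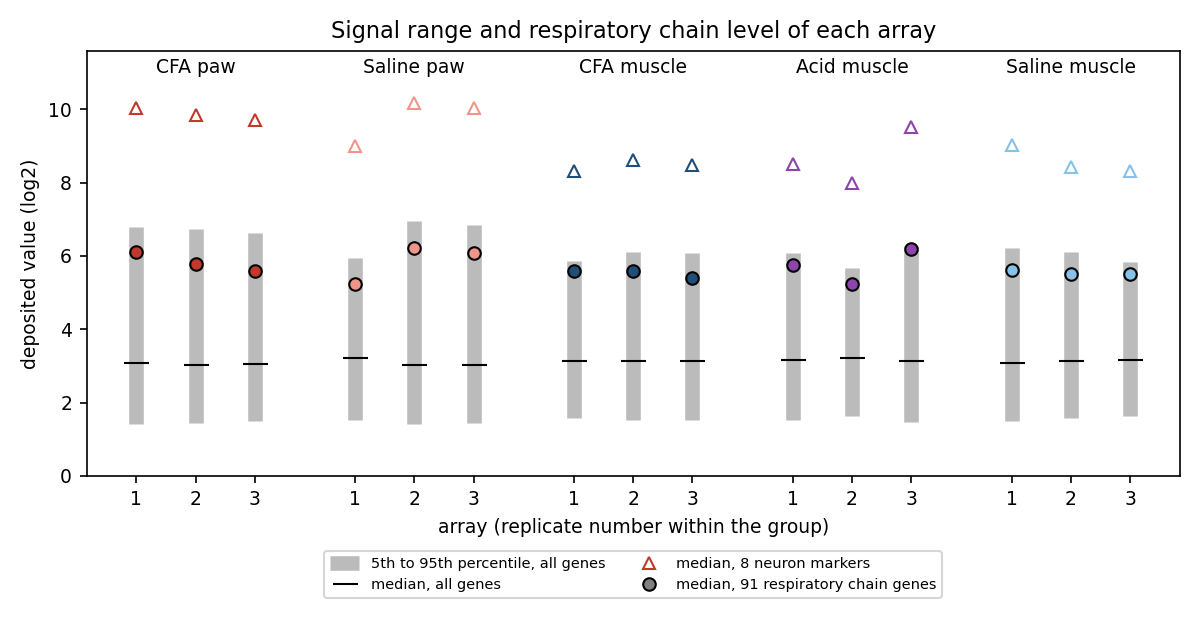
Deposited log2 signal of each array in the 5 groups: grey bars span the 5th to 95th percentile of all genes, dashes are the median of all genes, circles the median of the 91 respiratory chain genes and triangles the median of 8 neuron markers. Paw arrays have longer bars than muscle arrays except saline paw replicate 1, and the circles are highest on saline paw replicate 2 (6.21) and acid muscle replicate 3 (6.20).

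When the arrays were brought to a common range, the median over members turned negative and fewer members were positive. In the treatments that equalise the range, 25 to 33 members were positive with saline and 19 to 37 under CFA, against 71 and 69 as deposited. The median saline paw minus saline muscle difference was 0.25 after centring arrays on their medians. It was -0.12 after scaling to the same median and SD, -0.19 after quantile normalisation, -0.18 after cyclic loess and -0.17 with array SD as a covariate. For CFA paw minus CFA muscle the corresponding medians were 0.27, -0.05, -0.21, -0.21 and -0.27. Scaling to the same median and SD moved the CFA median of all genes to 0.10, and relative to that the members lay lower still. Across the deposited values and these 5 scalings, 20 members were higher and 14 lower throughout in the saline comparison and 57 changed direction. Under CFA the counts were 9, 9 and 73.

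The 4 genes that passed the test as deposited were positive under all 6 treatments of the data in both comparisons, although smaller when the range was equalised. Atp5d differed by 0.38 to 1.29 in the saline comparison and 0.36 to 1.59 under CFA. Atp5g1 differed by 0.17 to 1.21 and 0.30 to 1.66, Ndufa11 by 0.27 to 0.96 and 0.64 to 1.56, and Sdhc by 0.12 to 0.60 and 0.35 to 1.04. Of the 4, Atp5d passed the test under CFA with arrays scaled to the same median and SD (0.67, adjusted p = 0.0296), and none passed after quantile normalisation, after loess or with the SD covariate. After median centring, 3 members (3.3%) passed as higher under CFA, 2 of ATP synthase and 1 of complex II, and 0 with saline. Of all genes, 5.42% passed as higher under CFA and 0.903% with saline.

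**Figure D5:**
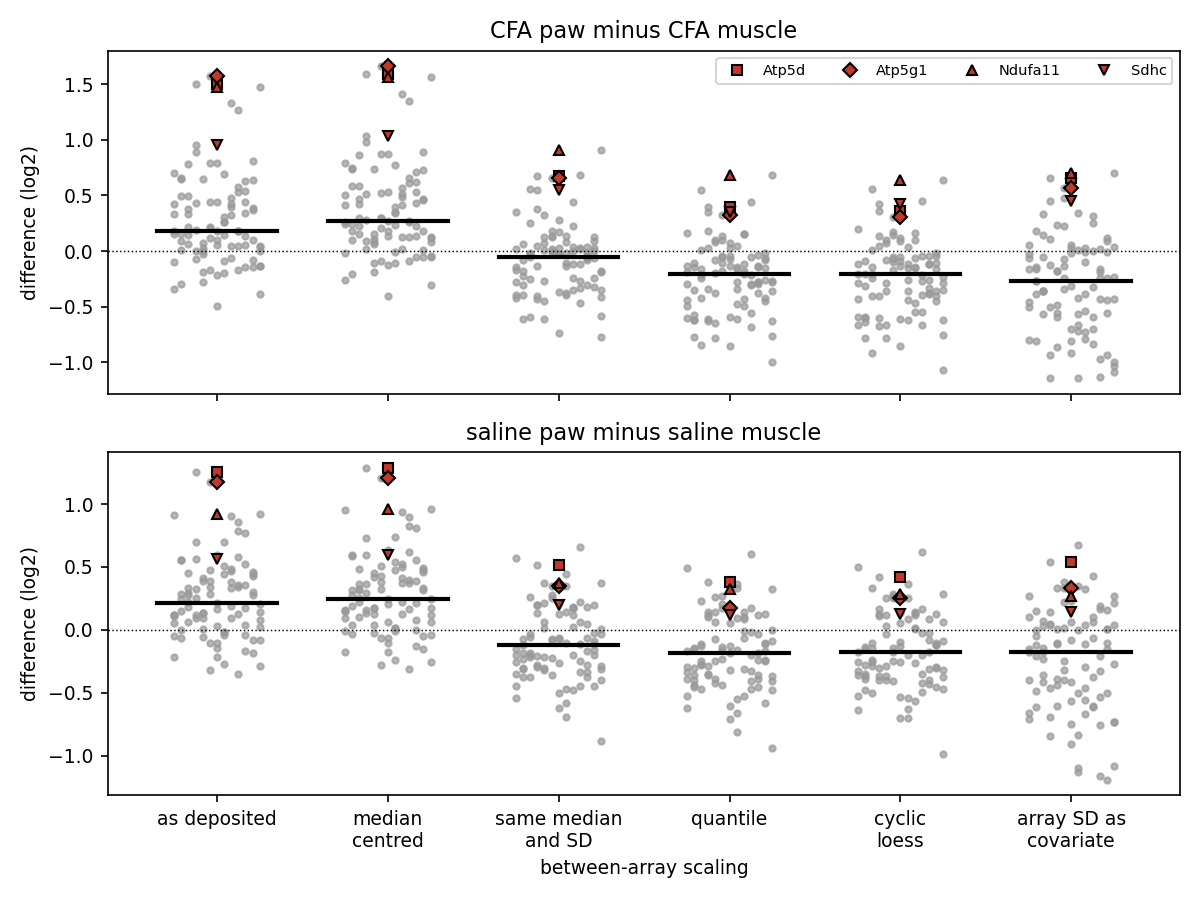
Log2 difference of each of the 91 genes (grey points) under 6 treatments of the values, for CFA paw minus CFA muscle and saline paw minus saline muscle. Black lines are medians, positive for deposited and median-centred values and negative for the other 4, while the 4 named genes stay above 0.

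Other members passed in the lower direction under 3 of the 4 range-equalising treatments. With saline they were 3 after loess (3.30%, against 0.808% of all genes), 2 after quantile normalisation (2.20% against 0.662%) and 3 with the SD covariate (3.30% against 1.03%). Under CFA they were 11 (12.1% against 1.46%), 6 (6.59% against 1.09%) and 7 (7.69% against 1.06%). Such calls were not particular to the members. Of the 65 cytosolic ribosomal protein genes, 4, 3 and 3 were lower with saline in the same treatments, and 19, 16 and 8 under CFA. Scaling to the same median and SD called 0 members lower in both comparisons, against 0.376% and 0.672% of all genes. Cox5a and Cox6c, structural subunits of complex IV, passed in all 3 and in both comparisons. They are named after these values were seen. Cox6c as deposited had 7.40, 7.00 and 7.31 in CFA paw arrays, against 7.53, 7.17 and 7.42 in CFA muscle arrays. These values overlap and the difference was -0.14 (SE 0.34), while after loess it was -1.07 (adjusted p = 0.00205). In the saline comparison Cox6c differed by -0.29 as deposited and -0.99 after loess, and by 0.24 as deposited without saline paw replicate 1. Cox5a as deposited differed by 0.10 under CFA and -0.15 with saline (SE 0.31 each), and after loess by -0.62 and -0.70.

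Tissue paralogs did not show a switch that passed the test. The heart and muscle forms Cox6a2, Cox7a1 and Cox8b differed by -0.35 (SE 0.22), -0.05 (SE 0.17) and 0.03 (SE 0.19) in the saline comparison, and Cox8b is dim. Their widespread counterparts Cox6a1, Cox7a2 and Cox8a differed by 0.90 (SE 0.54), 0.24 (SE 0.25) and 0.47 (SE 0.35). Under CFA, Cox6a1 and Cox8a differed by 1.33 and 0.79 with no overlap between groups (adjusted p = 0.168 and 0.210), and Cox6a2 and Cox7a1 by -0.17 and -0.35. Cox4i1 differed by 0.13 with saline and 0.03 under CFA, and Cox4i2, a form known from lung and hypoxia, by 0.29 and 0.12. Cox6b1 differed by 0.35 and 0.63, and its testis form Cox6b2 by -0.19 and -0.14. Cox7a2l, a supercomplex assembly protein, differed by 0.29 and 0.07, and Cox7b by 0.32 and 0.43. Cox7b2 and Cox8c are dim. Ndufa4, now counted with complex IV, differed by 0.41 and 0.65, and its paralog Ndufa4l2 by -0.32 and -0.17.

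The 3 genes that encode the same mature c subunit of ATP synthase had unequal values. With saline and under CFA, Atp5g1 differed by 1.17 and 1.58, Atp5g2 by 0.60 and 0.79, and Atp5g3 by -0.04 and 0.15. Of these, Atp5g1 under CFA passed. Atp5g3 had 5.36, 7.23 and 7.21 in saline paw arrays, against 6.83, 6.50 and 6.60 in saline muscle arrays, so that 1 paw array lay below and the others above every muscle array.

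Inflammation or acid changed no member by the test. CFA paw minus saline paw called 0 of all genes higher and 0 lower (0% each way), and 1 member and 241 of all genes had an unadjusted p under 0.05 in limma. The median over members was -0.00, and no member lay above and 3 lay below the control arrays without overlap, against 1.73% and 2.99% of all genes. Ndufb3, an accessory complex I subunit, had the smallest p. Its values were 4.78, 4.96 and 4.01 in CFA paw arrays, against 4.81, 5.26 and 5.37 in saline paw arrays, and its difference was -0.56 (SE 0.24, adjusted p = 1.00 in limma). Cox7a1 and Sdhd followed at -0.27 and -0.35. Without saline paw replicate 1 the member median was -0.28, and without replicate 2 it was 0.16, so its sign rested on single control arrays.

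CFA muscle minus saline muscle also called 0 of all genes in each direction. Of the members 0, and of all genes 518, had an unadjusted p under 0.05. The member median was -0.02, with 1 member above and 10 below the control arrays without overlap, against 3.63% and 4.1% of all genes. Ndufb11, a complex I membrane subunit, had 4.73, 4.66 and 4.92 in CFA muscle arrays, against 4.23, 4.47 and 4.36 in saline muscle arrays, a difference of 0.42 (SE 0.23). Ndufaf2 and Ndufaf4, both complex I assembly factors, differed by -0.27 (SE 0.15) and -0.42 (SE 0.24). Under all 6 treatments of the values the member median stayed between -0.04 and -0.01.

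Acid muscle minus saline muscle called 0 of all genes as well, with an unadjusted p under 0.05 for 6 members and 568 of all genes. The member median was 0.15, with 67 of 91 positive, and 3 members lay above and 0 below the control arrays without overlap, against 3.98% and 2.94% of all genes. Ndufa6, an accessory complex I subunit, had 5.43, 4.58 and 6.54 in acid muscle arrays, against 4.96, 4.18 and 4.68 in saline muscle arrays. The acid arrays spread more widely than the difference of 0.91 (SE 0.37). Cox4i2 had 3.40, 3.76 and 3.59 in acid muscle arrays, against 3.26, 3.17 and 3.35 in saline muscle arrays, a difference of 0.32 (SE 0.14), and Ndufv1, which holds the NADH site, differed by 0.35 (SE 0.15). Without acid muscle replicate 3 the member median was -0.14, and without replicate 2 it was 0.39.

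Acid muscle replicates 2 and 3 stood at opposite ends for this gene group. Acid muscle replicate 3 held the highest of the 15 values for 42 members (46.2%) but for 4.16% of all genes. Acid muscle replicate 2 held the lowest for 38 members (41.8%), against 10.7% of all genes. The neuron marker median moved the same way, at 7.99 in acid muscle replicate 2 (the lowest of the 15 arrays) and 9.51 in replicate 3 (the highest muscle array), with 8.50 in replicate 1. Its part in the result was not tested. Saline paw replicate 1 held the lowest for 19 members (20.9%), against 6.41% of all genes. Cox6a1 shows it: 8.11, 7.13 and 9.86 in acid muscle arrays, against 8.13, 8.23 and 7.88 in saline muscle arrays. Over the 15 arrays the 87 members above the dim limit had a median pairwise correlation of 0.50, and of 0.61 after group means were removed, with 64.4% of their variance on the first component; these describe arrays that also differ in range.

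The CFA effect in skin neurons minus the CFA effect in muscle neurons called 0 of all genes in each direction, and 1 member and 325 of all genes had an unadjusted p under 0.05 in limma. The member median was 0.04. Ndufb11 had the smallest p, at -0.70 (SE 0.32, adjusted p = 1.00 in limma), followed by Ndufb3 at -0.68 (SE 0.34) and Sdhd at -0.66 (SE 0.39). The Ndufb11 probe set used differed between paw and muscle by 0.51 with saline and -0.19 under CFA. A second Ndufb11 probe set of similar signal differed by 0.35 and 0.22, so the 2 probe sets disagreed in direction under CFA. This contrast and the single comparisons share their saline and CFA arrays.

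Other genes of mitochondrial energy metabolism were counted for context in the deposited values. There, 1.87% of all genes were higher and 0.171% lower with saline, and 5.75% and 0.667% under CFA. Of 38 further assembly factors measured, Bcs1l (which inserts the Rieske protein into complex III, 1.11, adjusted p = 0.00728) and Cox19 (a copper-delivery factor of complex IV, 0.61) were higher in saline paw than in saline muscle neurons, and 0 passed under CFA. Of 27 carriers and import genes, Slc25a12, an aspartate and glutamate carrier, was higher in both comparisons (1.21 and 1.30). Slc25a4, an ADP and ATP carrier (1.25), and Timm17b, of the inner membrane import channel (0.92), were higher under CFA. Of 18 citric acid cycle genes, 0 passed with saline and Mdh2, the mitochondrial malate dehydrogenase, was higher under CFA (1.12). Of 16 glycolysis genes, Aldoa was higher in both (1.41 and 1.66) and Eno2, the neuronal enolase, under CFA (1.42). After loess 0 glycolysis genes were higher, while 1 was lower with saline and 2 were lower under CFA. Their median turned from 0.43 to -0.15 with saline and from 0.53 to -0.29 under CFA. The citric acid cycle median turned from 0.24 to -0.11 and from 0.25 to -0.22. Of 77 mitochondrial ribosome genes, 0 passed with saline and Mrpl44 was lower under CFA (-0.64).

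Of 22 regulators measured, 0 passed with saline, and the transcription factor Myc was higher under CFA (2.29, adjusted p = 0.00254). Some that did not pass were chosen after their values were seen. Ppargc1a, a coactivator of mitochondrial biogenesis, had group means of 5.21 in saline paw and 4.04 in saline muscle arrays, a difference of 1.17 (SE 0.35) that did not pass. Nrf1, Gabpa, Esrra and Yy1, whose motifs were searched above, differed by -0.03, 0.05, -0.11 and 0.17. As deposited, 0 of the 65 cytosolic ribosomal protein genes passed with saline and Rpl29 was higher under CFA (1.27). Their median was 0.14 as deposited and -0.26 after loess in the saline comparison, and -0.01 and -0.51 under CFA.

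Cell type markers moved with the same comparisons. All 8 neuron markers were positive in saline paw minus saline muscle (median 1.58), and Rbfox3, Uchl1, Nefh and Nefl passed. Under CFA the median was 1.70 and 6 passed, Tubb3 and Snap25 (named after their values were seen) besides those 4. Of all genes, 1.87% were called higher with saline and 5.75% under CFA. Most of these markers had mean signals above 8. All genes above 8 had medians of 1.08 with saline (93.0% positive) and 1.33 under CFA (94.4% positive). Of the markers above 8, Prph (0.56) and Nefm (0.85) lay below 1.08 with saline and the rest above it. Rbfox3 and Tubb3 had mean signals of 6.44 and 7.77. They differed by 2.26 and 1.81 with saline, and by 2.61 and 2.13 under CFA. All genes of 6 to 7 and 7 to 8 had medians of 0.53 and 0.64 with saline, and 0.74 and 0.81 under CFA. The part of the wider signal range of the paw arrays in the marker differences was not tested. Summed on the linear scale, the neuron markers ranged over 10388 to 11829 in CFA paw and 7121 to 13358 in saline paw arrays, and over 2806 to 4243 in CFA muscle, 2612 to 6849 in acid muscle and 2927 to 5161 in saline muscle arrays. Of 3 Schwann cell markers, Mag was lower in CFA paw than in CFA muscle neurons (-0.88), and its CFA paw mean of 2.45 lay near the dim limit. Mbp (group means of 4.71 and 6.03) and Pmp22 (9.70 and 9.63) did not pass. The sum of the 3 was 814 to 938 in CFA paw and 547 to 1226 in CFA muscle arrays. All 5 endothelial markers were negative in both comparisons (medians -0.42 and -0.51) and 0 passed. All 6 skeletal muscle markers were negative too (medians -0.33 and -0.23), with 0 passing and sums of 63.0 to 103 in saline paw and 88.0 to 114 in saline muscle arrays. Of 6 satellite glia, 6 macrophage, 6 fibroblast and 2 erythroid markers, 0 passed in either comparison. No marker was at 0, and the part of these cell types in the respiratory chain differences was not tested.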

How the data were processed

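Per the submitters' processing notes the authors used RMA in Partek (versions not given). The deposited values are 1 normalised log2 signal per probe set and array, the log base being inferred from their range. They were used as deposited. Of 35556 probe sets, 21789 had 1 gene symbol in the platform annotation, 1621 had several and 12146 were not listed and stayed unnamed, and the brightest probe set stood for each of 19938 genes. limma 3.58.1 in R 4.3.3 fitted 5 group means to all 15 arrays (residual 10, prior 4.32 degrees of freedom). Tests were two-sided with Benjamini-Hochberg adjustment over all genes and a threshold of 0.05, after the script was tested on simulated data. The number of arrays limits the precision. Alternatives were other scalings between arrays, array weights, array SD as a covariate, dim genes left out, averaging a gene's probe sets, a robust prior with an intensity trend, the replicate number as a block, the compared arrays alone and each array left out, those of groups not compared being added after seeing the data.

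The members named were those that passed, the 4 highest and 4 lowest differences with saline, the highest and lowest signal of each complex, the 3 smallest p-values of every other comparison, and paralog sets. Of other lists, up to 4 genes that passed were named. The members and lists were chosen with earlier results of these data known, and the ribosomal list was trimmed of kinases after values were seen. Of the members, 18 had more than 1 probe set, and 10 share a named pseudogene that could share probe signal: Atp5c1, Atp5k, Atp5l, Atp5pb, Cox5b, Cycs, Ndufa12, Ndufab1, Ndufs5 and Uqcrh.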

Additional observations from a re-analysis of the deposited data

How the results depend on the processing

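For saline paw minus saline muscle, 0 members were higher, against 1 as deposited, after median centring, loess, quantile normalisation, scaling to the same median and SD, with the SD covariate, with an intensity trend and in a fit of the compared arrays alone, and 40 (44.0%, against 21.4% of all genes) were higher and 1 (1.10%, against 15.6%) lower with array weights. Members lower were 3 after loess, 2 after quantile normalisation and 3 with the SD covariate, against 161, 132 and 206 of all genes, and the median over members was -0.18, -0.19 and -0.17. Leaving out each of the 15 arrays in turn gave 0 to 14 higher and 0 to 1 lower, with Cox6c between -0.57 and 0.24 and Ndufs5 between -0.70 and 0.37. Cox6a2 (0.062) and Ndufa4l2 (0.22) changed sign with the SD covariate, and Cox6c (0.17) and Ndufs5 (0.53) with array weights. For CFA paw minus CFA muscle, the 4 members higher became 3 after median centring (3.3%, against 5.42% of all genes). They became 0 after loess and 0 after quantile normalisation (3.51% and 2.39% of all genes). With the same median and SD they became 1 (1.1% against 3.57%), and with the SD covariate 0 (1.16% of all genes). With array weights they were 20 (22%, against 14.1% of all genes). In the compared arrays alone they were 21 (23.1%, against 12.7% of all genes), so in these 2 fits the members' share lay above that of all genes. Members lower were 11, 6 and 7 after loess, quantile normalisation and the SD covariate, against 292, 218 and 212 of all genes, with medians of -0.21, -0.21 and -0.27. Leaving out each of the 6 arrays compared gave 1 to 2 higher, and each of the other 9, chosen after seeing the data, 3 to 9 higher, the most without saline paw replicate 1 (2106 of all genes). The cause was not tested.

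With the replicate number as a block (replicate block), 0 members were higher with saline and 4 (4.4%) under CFA, against 1.46% and 5.18% of all genes. Deviations of same-numbered arrays correlated between -0.50 and 0.25 over the 5 group pairs, and those of differently numbered arrays between -0.49 and 0.54. With 3 arrays per group, and with arrays that differ in range, this cannot show whether the numbers pair the samples. Over all genes, 373 were higher with saline as deposited, against 180 after centring, 213 after quantile normalisation, 4272 with array weights and 0 in the compared arrays alone. Under CFA 1146 were higher, against 700 after loess, 477 after quantile normalisation, 232 with the SD covariate and 2812 with array weights. In the 4 other comparisons 0 members passed under every alternative run, while over all genes array weights called 32 higher and 93 lower for CFA paw minus saline paw, and leaving out CFA muscle replicate 1 called 8 higher for CFA muscle minus saline muscle and 1 lower for the difference between the CFA effects. Differences of members near the dim limit are compressed by background.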
